A study of Mus musculus with 7 samples.

Results

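Nrf2, the protein of Nfe2l2, is a transcription factor that switches on genes against oxidative and electrophilic stress, and the genes examined here are Nfe2l2, its inhibitor Keap1 and its classic antioxidant targets. They were chosen by name, as 9 genes (Nfe2l2, Keap1, Gclc, Gclm, Nqo1, Hmox1, Txnrd1, Srxn1 and Slc7a11). Of the 9, 8 had a probe set with a single gene symbol among the 16819 genes compared, each of the 8 with 1 probe set, and Slc7a11 was not analysed here. Expression was measured in whole liver of male Dicer1 fl/fl mice, whose mixed background joins 129S4 with C57BL/6, on 7 Affymetrix arrays, 1 per liver. AAV8-Ttr-Cre, a virus whose transthyretin promoter drives Cre recombinase in hepatocytes, was given at 8 to 10 weeks of age to delete Dicer1, the ribonuclease that makes mature microRNAs. The groups were 3 livers without the virus (control, 0 weeks), 2 livers taken 2 weeks after it and 2 taken 4 weeks after it, and all mice carried the floxed Dicer1 alleles and were fasted for 4 hours. Neither a Cre-free virus nor an uninjected group at the later times was included, so effects of the virus, of Cre, of elapsed time and of Dicer1 loss cannot be told apart.

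In an unstressed cell Keap1 holds Nrf2 and hands it to a Cul3 ubiquitin ligase for destruction. Oxidants and electrophiles modify Keap1, Nrf2 then builds up, pairs with a small Maf protein and binds antioxidant response elements near its target genes. In liver these targets make glutathione, rebuild reduced thioredoxin, break down heme and detoxify quinones and drugs. Much of this control acts on the Nrf2 protein, which was not measured, so the values here are transcript levels only.

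The response element has a core that is commonly written TGACNNNGC or TGAGNNNGC, where N is any base. RefSeq promoter sequences (GRCm38.p6, 250 bases before to 50 after the transcription start) were at hand for 6 of the 8 genes, 8 promoters in all, of which Txnrd1 had 3. Both cores were searched on both strands. The promoters of Nfe2l2, Gclm and Srxn1 are printed because they set the transcription factor gene and a glutathione synthesis gene beside an antioxidant gene that was not called changed. Capitals mark each match to a core.
Nfe2l2, chr2:75704614-75704913, minus strand: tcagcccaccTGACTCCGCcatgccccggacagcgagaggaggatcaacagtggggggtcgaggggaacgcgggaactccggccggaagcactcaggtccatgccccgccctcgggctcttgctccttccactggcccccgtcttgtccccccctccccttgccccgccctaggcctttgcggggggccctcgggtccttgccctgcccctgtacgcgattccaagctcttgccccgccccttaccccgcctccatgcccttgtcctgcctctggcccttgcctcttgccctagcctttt
Gclm, chr3:122245307-122245606, plus strand: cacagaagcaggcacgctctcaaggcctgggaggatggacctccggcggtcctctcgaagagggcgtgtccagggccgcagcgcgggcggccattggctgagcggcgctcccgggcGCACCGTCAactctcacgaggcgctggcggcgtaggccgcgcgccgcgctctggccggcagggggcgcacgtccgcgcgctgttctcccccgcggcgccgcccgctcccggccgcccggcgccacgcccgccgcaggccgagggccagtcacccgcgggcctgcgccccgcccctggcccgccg
Srxn1, chr2:152105274-152105573, plus strand: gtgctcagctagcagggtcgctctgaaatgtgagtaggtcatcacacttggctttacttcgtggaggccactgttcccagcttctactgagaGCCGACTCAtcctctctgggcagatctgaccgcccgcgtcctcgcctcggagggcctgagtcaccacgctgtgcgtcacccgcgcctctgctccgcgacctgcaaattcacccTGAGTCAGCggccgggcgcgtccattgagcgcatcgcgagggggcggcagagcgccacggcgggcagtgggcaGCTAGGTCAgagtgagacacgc

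The Nfe2l2 promoter held 1 match, TGACTCCGC, beginning 240 bases before the start. The Gclm promoter held TGACGGTGC on the opposite strand, beginning 134 bases before the start. Srxn1 held 3 matches, among them TGAGTCAGC 45 bases before the start, which also contains the letters of an AP-1 site (TGAGTCA). Of the 3 Txnrd1 promoters, 1 held a match (TGACAAAGC), and the Keap1 and Nqo1 windows held none. So 4 of 6 genes with a promoter had a match to TGACNNNGC, beside 14.0% of all genes with a promoter and 12.4% of all 32851 promoters of this length, and 1 of the 6 had a match to TGAGNNNGC, beside 19.8% of genes and 17.6% of promoters. Either core was found in 4 of the 6, beside 30.8% of genes and 27.8% of promoters. A match says only that the letters are there, and genes with and without a called change both had one. The search did not reach beyond 250 bases before or 50 bases after the start, so a window without a match does not mean that a gene lacks an element elsewhere.

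The arrays had nearly equal medians, between 7.073 and 7.09 on the log2 scale. Dicer1 read 8.58 to 8.73 on the controls and 7.79 to 8.05 on the 4 arrays after Cre, a fall by 0.76 at 2 weeks (SE 0.09, adjusted p = 0.0158, limma) and by 0.66 at 4 weeks (SE 0.09, adjusted p = 0.0159). Whether its probe set lies in the deleted exons is not known here, and cells other than hepatocytes keep the gene. On the first principal component (62% of the variance) the controls lay at -23.8 to -22.4, the first 2 week array at 6.6 and the other 3 arrays after Cre at 18.4 to 24.3. The 12 measured of 15 hepatocyte markers had a mean log2 signal of 13.52 to 13.69 on every array, and the dimmest (Hnf4a) averaged 11.89. Of all genes, 58.5% had the same value, to 5 decimals, on at least 2 arrays, and 78 genes had 1 value on all 7. Among the 8 genes this touched Keap1, Hmox1, Txnrd1 and Srxn1, whose spread within a group is therefore a poor guide to the spread between mice. Nfe2l2, Gclc, Gclm and Nqo1 had 7 distinct values.

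The pattern across the 8 genes was uneven. Nfe2l2 was about 2-fold higher after Cre and was called at both times. Gclc and Gclm, the catalytic and modifier subunit genes of glutamate-cysteine ligase, were called only with both times averaged. Keap1, Nqo1, Hmox1, Txnrd1 and Srxn1 were not called in any of these comparisons. At 2 weeks 1 of the 8 rose and 0 fell (limma with Benjamini-Hochberg adjustment over all genes, adjusted p under 0.05), when 5.93% of all genes were called, 3.46% higher and 2.47% lower. At 4 weeks again 1 rose and 0 fell, when 9.77% of all genes were called, 5.15% higher and 4.62% lower. With both times averaged (called after Cre), 3 rose and 0 fell, when 12.9% of all genes were called, 6.79% higher and 6.12% lower. The median log2 fold change of the 8 was 0.23 at 2 weeks and 0.09 at 4 weeks, beside medians of -0.002 and 0.008 over all genes. The arrays after Cre all lay above every control for Nfe2l2, Gclc, Gclm and Srxn1 and all lay below for Keap1, an arrangement that 25.1% of all genes had, 12.9% of them upward and 12.2% downward as shares of all genes. For 2 weeks alone 34.9% of all genes had no overlap with the controls (17.3% higher, 17.5% lower), and for 4 weeks alone 39.8% (21.6% higher, 18.2% lower), so a lack of overlap was common on these arrays.

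**Figure D1:**
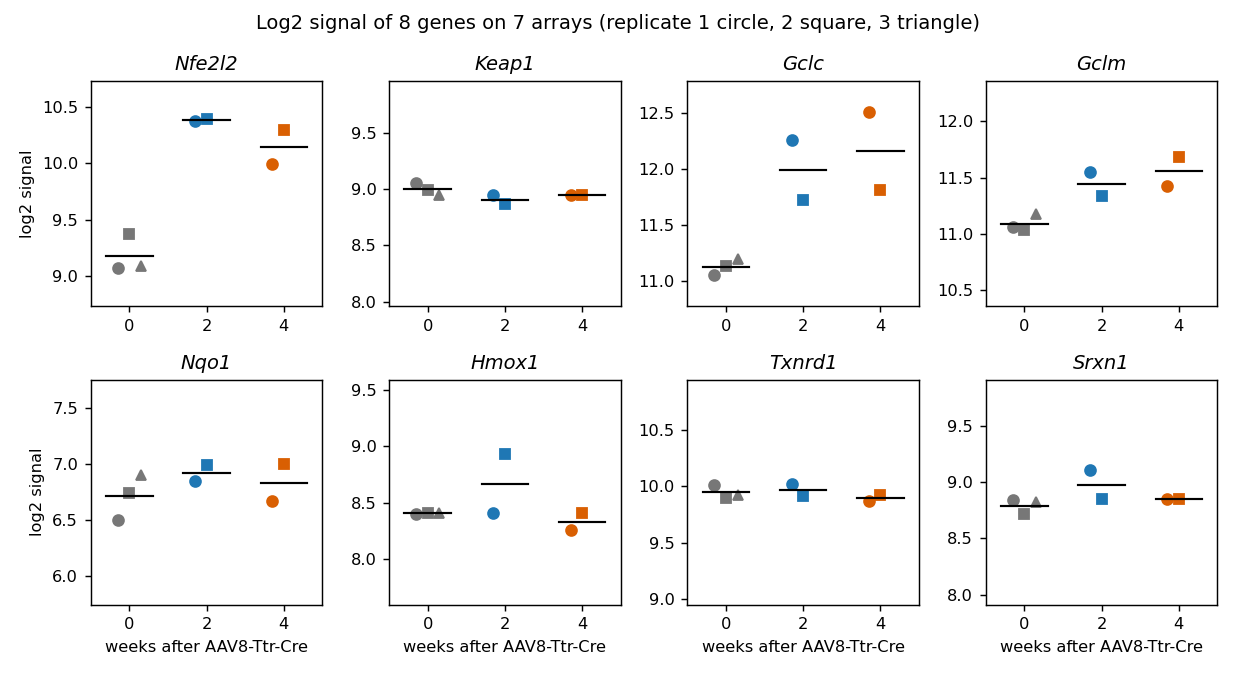
Log2 signal (vertical axis, spanning 2 log2 units in each panel) of 8 genes on each array against weeks after AAV8-Ttr-Cre; each symbol is 1 liver and the bar is the group mean. Nfe2l2, Gclc, Gclm and Srxn1 lie above all 3 controls on all 4 arrays after Cre, and Keap1 lies below them. Hmox1 is raised on 1 array at 2 weeks (8.93). Keap1 and Txnrd1 stay within 0.19 and 0.15 log2 units over all arrays.

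Nfe2l2, the gene of the transcription factor itself, had log2 signals of 9.07, 9.37 and 9.09 in the control livers. It reached 10.37 and 10.39 at 2 weeks, then 10.00 and 10.30 at 4 weeks. The groups did not overlap, and the 2 livers at 2 weeks were nearly equal. This was a rise of 2.30-fold at 2 weeks (log2 1.2, SE 0.13, 95% interval 0.89 to 1.52, adjusted p = 0.0134, limma, n = 3 and 2) and of 1.96-fold at 4 weeks (log2 0.97, SE 0.13, 95% interval 0.65 to 1.29, adjusted p = 0.016). Its change ranked above 99.4% of all genes at 2 weeks and above 98.9% at 4 weeks. The times differed by -0.23 (SE 0.14, adjusted p = 0.773). Leaving out any 1 array kept the log2 fold change between 1.15 and 1.30 at 2 weeks and between 0.82 and 1.12 at 4 weeks. The adjusted p then rose to between 0.0561 and 0.069 at 2 weeks without control replicate 1, control replicate 3 or 2 week replicate 2. At 4 weeks it rose to between 0.0589 and 0.0808 without control replicate 1, control replicate 3, 4 week replicate 1 or 4 week replicate 2.

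Keap1, the inhibitor, read 9.05, 8.99 and 8.95 on the controls, 8.94 and 8.87 at 2 weeks and 8.95 on both arrays at 4 weeks. All 4 arrays after Cre lay at or just under the lowest control, as did the arrays of 12.2% of all genes for the same comparison. The log2 fold change was -0.09 at 2 weeks (95% interval -0.22 to 0.03, adjusted p = 0.333) and -0.05 at 4 weeks (95% interval -0.17 to 0.07, adjusted p = 0.61).

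Of 22 other genes that partner, compete with or degrade Nrf2, 20 were measured. At 2 weeks 3 rose and 0 fell, when 5.93% of all genes were called. At 4 weeks 2 rose and 0 fell, when 9.77% of all genes were called (list medians 0.03 and 0.06). Sqstm1, whose product p62 sequesters Keap1 and is itself an Nrf2 target, read 11.67, 11.69 and 11.79 on the controls, 12.21 and 12.35 at the 2 week time, then 12.45 and 12.47 at 4 weeks. It rose 1.48-fold at 2 weeks (log2 0.57, SE 0.06, adjusted p = 0.0153) and 1.67-fold at 4 weeks (log2 0.74, SE 0.06, adjusted p = 0.00834), with no overlap between the groups. The acetyltransferase coactivator genes Ep300 and Crebbp, which serve many factors besides Nrf2, were 1.26-fold and 1.38-fold higher at 2 weeks (adjusted p = 0.0148 and 0.0265). At 4 weeks Ep300 was 1.14-fold higher (adjusted p = 0.0374) and Crebbp was at 0.30 (adjusted p = 0.0537). Park7, which encodes the redox protein DJ-1, was at -0.20 at 2 weeks and -0.18 at 4 (adjusted p = 0.172 and 0.183). Dcaf11, a substrate receptor of a Cul4 ligase, was at -0.24 and -0.17 (adjusted p = 0.0661 and 0.114). With both times averaged after Cre, 4 genes of the list rose and 1 fell (median 0.048), when 12.9% of all genes were called. Sqstm1, Ep300, Crebbp and the Nrf2 relative Nfe2l1 rose, and Dcaf11 fell by 0.21 (adjusted p = 0.0409). Nfe2l1, named after its values were seen, rose 1.34-fold (log2 0.42, adjusted p = 0.0431).

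Glutamate-cysteine ligase makes the first and rate-limiting bond of glutathione, and Gclc encodes its catalytic subunit. Gclc read 11.06, 11.13 and 11.20 on the controls, 12.26 and 11.73 at the 2 week time, then 12.50 and 11.81 at 4 weeks. Every array after Cre was above every control, but the 2 livers of each time stood far apart, with replicate 1 the higher at both times. Against the control mean the first replicates were 1.13 and 1.37 higher and the second replicates 0.60 and 0.68 higher, in log2 units. The 2 week replicate 1 that lay closest to the controls on the first principal component thus had the higher Gclc of its pair.

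The log2 fold change of Gclc was 0.86 at 2 weeks (1.82-fold, SE 0.24, 95% interval 0.26 to 1.46, adjusted p = 0.102, limma) and 1.03 at 4 weeks (2.04-fold, SE 0.24, 95% interval 0.43 to 1.63, adjusted p = 0.0561). Neither time passed alone. Averaged after Cre it rose 1.93-fold (log2 0.95, SE 0.20, adjusted p = 0.0365, n = 3 and 4). Without any 1 array except 4 week replicate 2, that call was lost, with adjusted p between 0.0521 and 0.126, while the log2 fold change stayed between 0.77 and 1.12.

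Gclm, the modifier subunit that raises the affinity of the enzyme for glutamate, read 11.06, 11.03 and 11.18 on the controls, 11.55 and 11.33 at the 2 week time, then 11.43 and 11.68 at 4 weeks. Here too the groups did not overlap, and the replicates did not keep the order seen for Gclc. The log2 fold change was 0.35 at 2 weeks (1.28-fold, SE 0.11, adjusted p = 0.123) and 0.46 at 4 weeks (1.38-fold, SE 0.11, adjusted p = 0.0535). After Cre it rose 1.33-fold (log2 0.41, SE 0.09, 95% interval 0.19 to 0.63, adjusted p = 0.0391). That call was lost without any 1 of the 7 arrays, with adjusted p between 0.054 and 0.14 and log2 fold changes between 0.34 and 0.47.

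**Figure D2:**
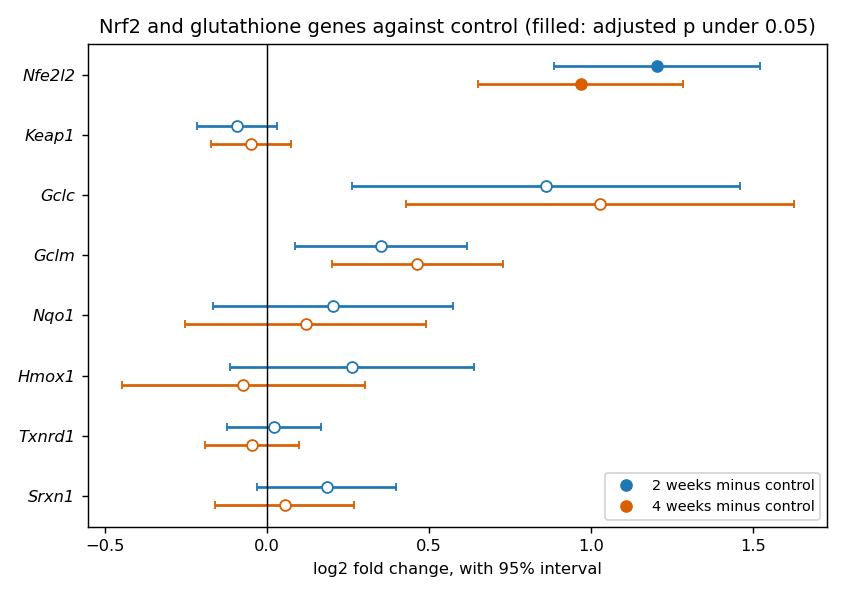
Log2 fold change (horizontal axis) of 8 genes at 2 and 4 weeks against control, with unadjusted 95% intervals from the limma fit; filled points have an adjusted p under 0.05. Nfe2l2 is filled at both times, the intervals of Gclc and Gclm lie above 0 with open points, and the intervals of the other 5 genes cross 0.

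Cysteine is the scarce amino acid of glutathione, and some genes that supply it were called higher. Of 21 genes of the methionine cycle, transsulfuration and cysteine use, 18 were measured. At 2 weeks 2 rose and 0 fell, when 5.93% of all genes were called. At 4 weeks 4 rose and 2 fell, when 9.77% of all genes were called (list medians 0.05 and 0.035). Cbs, which condenses homocysteine and serine, read 11.52, 11.55 and 11.49 on the controls and 11.93 to 12.07 on the 4 arrays after Cre. It rose 1.37-fold at 2 weeks (log2 0.45, SE 0.05, adjusted p = 0.018) and 1.4-fold at 4 weeks (log2 0.48, SE 0.05, adjusted p = 0.0116), with no overlap. Cth, which releases cysteine in the next step and is named here after its values were seen, was at 0.69 at 2 weeks (SE 0.15, adjusted p = 0.0582) and rose 1.60-fold at 4 weeks (adjusted p = 0.0478). Its arrays read 12.72, 12.72 and 12.84 without the virus and 13.21 to 13.69 after it.

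Slc1a4, a neutral amino acid transporter that carries serine, alanine and cysteine, rose 1.95-fold at 2 weeks (log2 0.96, SE 0.17, adjusted p = 0.0385) and 1.98-fold at 4 weeks (log2 0.99, adjusted p = 0.0271). It read 6.59 to 6.93 on the controls and 7.45 to 7.89 after Cre. Mat1a, the liver enzyme that makes S-adenosylmethionine, fell by 0.19 at 4 weeks (adjusted p = 0.0332) from control values of 13.74 to 13.76. Suox, which oxidises sulfite, was 1.68-fold higher at 4 weeks (adjusted p = 0.0418) and the transaminase gene Got1 1.66-fold lower (adjusted p = 0.0363), both named after their values were seen. Cdo1, which oxidises cysteine, was at 0.0061 and 0.07 (adjusted p = 0.989 and 0.694), and Gnmt, which methylates glycine, at 0.02 and -0.10 (adjusted p = 0.868 and 0.406).

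Among the later steps, neither Gss nor Gsr was called. Gss, which adds glycine to complete glutathione, read 9.64 to 9.85 on the controls and 9.54 to 9.86 after Cre, so the groups overlapped (adjusted p = 0.869 and 0.631). Gsr, which returns oxidised glutathione to its reduced form, read 10.07 to 10.32 and 10.21 to 10.39 (adjusted p = 0.684 and 0.739). Both are named after their values were seen. Among 20 measured of 22 recycling, breakdown and transport genes, 0 rose and 0 fell at 2 weeks, when 5.93% of all genes were called. At 4 weeks 1 rose and 3 fell, when 9.77% of all genes were called (list medians -0.076 and -0.045). After Cre, with both times averaged, 2 rose and 5 fell (median -0.078), when 12.9% of all genes were called.

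Hagh, a glyoxalase that hydrolyses a glutathione thioester and so frees glutathione, was the gene that rose, 1.34-fold at 4 weeks (log2 0.42, SE 0.06, adjusted p = 0.0207). Of those that fell at 4 weeks, Slc25a39, the carrier that brings glutathione into mitochondria, fell by 0.51 (adjusted p = 0.0382). Oplah, which returns oxoproline from broken down glutathione to glutamate, fell by 0.57 (adjusted p = 0.0433), and the mitochondrial glutaredoxin Glrx2, named after its values were seen, fell by 0.53 (adjusted p = 0.0491). For each of these 3 genes all 4 arrays after Cre lay below all controls. After Cre these 3 fell again, together with the glutaredoxins Glrx, by 0.97 (adjusted p = 0.0275), and Glrx5, by 0.58 (adjusted p = 0.0293). Chac1, which cleaves glutathione, rose 1.39-fold beside Hagh (adjusted p = 0.0432). Glrx, Glrx5 and Chac1 are named after their values were seen. Slc3a2, the heavy chain that partners the cystine transporter Slc7a11, read 10.54 to 10.75 on the controls and 10.76 to 11.00 after Cre, a log2 fold change of 0.23 at 2 weeks (adjusted p = 0.209) and 0.35 at 4 weeks (adjusted p = 0.0736). The leucine aminopeptidase gene Lap3 was at 0.06 and 0.02 (adjusted p = 0.533 and 0.836).

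**Figure D3:**
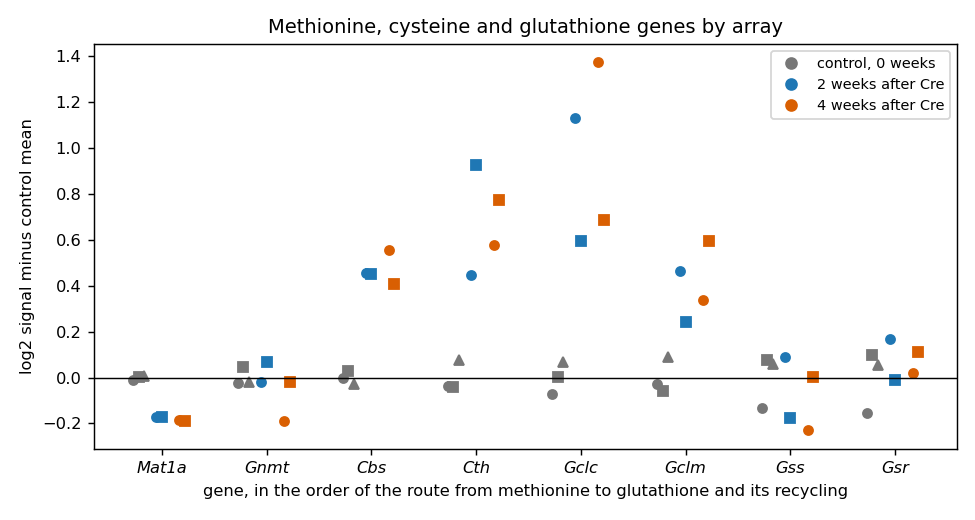
Log2 signal of each array minus the control mean (vertical axis) for 8 genes ordered along the route from methionine to glutathione and its recycling; symbols are livers (replicate 1 circle, 2 square, 3 triangle), coloured by group. Cbs, Cth, Gclc and Gclm lie above all controls on all 4 arrays after Cre, Mat1a lies below them, and Gss and Gsr overlap with the controls.

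In the thioredoxin arm neither Txnrd1 nor Srxn1 was called. Txnrd1, the cytosolic selenoenzyme that reduces thioredoxin, read 10.01, 9.89 and 9.93 on the controls, 10.02 and 9.91 at the 2 week time, then 9.87 and 9.93 at 4 weeks. The groups overlapped fully, and the log2 fold change was 0.02 at 2 weeks (95% interval -0.12 to 0.17, adjusted p = 0.86) and -0.05 at 4 weeks (95% interval -0.19 to 0.10, adjusted p = 0.702). Its intervals lay wholly below those of Nfe2l2 at both times.

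Srxn1, the sulfiredoxin that repairs overoxidised peroxiredoxins, read 8.84, 8.71 and 8.82 on the controls, 9.10 and 8.85 at 2 weeks and 8.85 on both arrays at 4 weeks. All 4 arrays after Cre were above the controls, but 3 of the 4 held the same value and exceeded the highest control by less than 0.01. The log2 fold change was 0.18 at 2 weeks (SE 0.09, 95% interval -0.03 to 0.40, adjusted p = 0.28) and 0.05 at 4 weeks (95% interval -0.16 to 0.27, adjusted p = 0.76). As in the promoters printed above, it carried the most core matches of the 6 genes searched.

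Of 28 other peroxidase, thioredoxin and superoxide dismutase genes, 25 were measured, with a median of -0.059 at both times. In this list 1 rose and 1 fell at 2 weeks, when 5.93% of all genes were called. At 4 weeks 1 rose and 3 fell, when 9.77% of all genes were called. Sesn3, a sestrin that restrains mTORC1, rose 2.36-fold at 2 weeks (adjusted p = 0.0475) and 2.15-fold at 4 weeks (adjusted p = 0.0488). Its arrays read 8.37 to 8.51 without the virus and 9.25 to 10.11 after it. Txn2, the mitochondrial thioredoxin, fell by 0.62 at 2 weeks (adjusted p = 0.0257) and by 0.70 at 4 weeks (adjusted p = 0.0156). The peroxiredoxin Prdx2 fell by 0.57 at 4 weeks (adjusted p = 0.0332), as did the selenoprotein Selenow, named after its values were seen, by 0.81 (adjusted p = 0.049). The abundant catalase and superoxide dismutase transcripts Cat and Sod1 were not called, with log2 fold changes at 4 weeks of 0.09 (adjusted p = 0.286) and -0.34 (adjusted p = 0.133).

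Nqo1, which reduces quinones by a pair of electrons and is a standard readout of Nrf2, read 6.5, 6.75 and 6.90 on the controls, 6.85 and 6.99 at the 2 week time, then 6.67 and 7.0 at 4 weeks. The groups overlapped, and the controls alone spanned most of the range. Its signal was low, with all 7 values below the array medians of 7.073 to 7.09. The effect of low signal on its fold changes was not tested. The log2 fold change was 0.20 at 2 weeks (SE 0.15, 95% interval -0.17 to 0.58, adjusted p = 0.478) and 0.12 at 4 weeks (95% interval -0.25 to 0.49, adjusted p = 0.693). Rises of the size seen for Nfe2l2 lay outside these intervals, while a rise of the size of Gclm lay inside both.

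Hmox1, the heme oxygenase that opens the heme ring and that is strongly expressed in macrophages, read 8.40, 8.41 and 8.41 on the controls, 8.40 and 8.93 at the 2 week time, then 8.26 and 8.41 at 4 weeks. A single array, replicate 2 at 2 weeks, stood above all others. The log2 fold change was 0.26 at 2 weeks (SE 0.15, 95% interval -0.11 to 0.64, adjusted p = 0.372) and -0.07 at 4 weeks (95% interval -0.45 to 0.30, adjusted p = 0.827). Without that array the 2 week value was near 0. On the same array the mean log2 signal of 16 measured of 16 macrophage markers was 8.35, the highest of the 7 arrays, against 7.99 to 8.20 on the controls, 8.02 on the other 2 week array and 7.96 and 8.23 at 4 weeks. Of these markers 0 were called at either time, the dimmest (Ccr2) had a mean of 5.01 and the brightest (Clec4f) of 9.44. On 2 week replicate 2 the mean was also highest for hepatocyte (13.69), stellate cell (8.73), bile duct (6.62) and lymphoid (5.67) markers. Endothelial (9.2) and erythroid (8.71) markers were not at their highest there. The part of any cell type in the Hmox1 value was not tested.

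In the list of heme and iron genes, 11 measured of 12, 0 rose and 1 fell at 2 weeks, when 5.93% of all genes were called. At 4 weeks 1 rose and 2 fell, when 9.77% of all genes were called (list medians -0.209 and -0.203). Slc40a1, the iron exporter ferroportin, read 11.39, 11.33 and 11.51 on the controls, 11.91 and 12.45 at the 2 week time, then 12.56 and 12.62 at 4 weeks. The groups did not overlap. It was at 0.77 at 2 weeks (SE 0.16, adjusted p = 0.0534) and rose 2.27-fold at 4 weeks (log2 1.18, adjusted p = 0.0168). Blvra, which reduces the biliverdin that heme oxygenase makes, fell by 0.33 at 2 weeks (adjusted p = 0.0389) and by 0.38 at 4 weeks (adjusted p = 0.0211). The heme transporter Slc48a1 fell by 0.76 at 4 weeks (adjusted p = 0.0464). The plasma heme and hemoglobin binders Hpx and Hp were at 0.11 and -0.05 at 4 weeks (adjusted p = 0.424 and 0.768).

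The broadest list, reported Nrf2 targets of conjugation, reduction and efflux, gave 1 called gene at each time among 36 measured of 42. Not measured were Gsta1, Gsta2, Ugt1a6a, Cyp2a5, Htatip2 and Ftl1. Over all genes 5.93% and 9.77% were called, and the list medians were -0.031 and -0.038. The called gene was Osgin1, an oxidative stress induced growth inhibitor that was placed in this list as a reported Nrf2 target. Osgin1 read 8.89, 8.57 and 8.73 on the controls, 10.99 and 10.32 at the 2 week time, then 10.55 and 10.18 at 4 weeks. With no overlap, it rose 3.79-fold at 2 weeks (log2 1.92, SE 0.23, adjusted p = 0.0171) and 3.11-fold at 4 weeks (log2 1.64, adjusted p = 0.0178), more than any of the 8 genes. The liver carboxylesterase Ces3a and the retinal dehydrogenase Aldh1a1 were at -0.06 and 0.03 at 4 weeks (adjusted p = 0.588 and 0.87). Glutathione transferases of one class are close in sequence, so a probe set may read more than 1 of them. Of those measured in the list, 0 were called. Uncalled and named after their values were seen, Gstm3 and Gstm4 lay above every control on all 4 arrays after Cre. Their signals were 0.34 to 1.42 and 0.16 to 0.47 above the control mean. Gsta3, Gstp1, Mgst1 and Mgst3 lay below every control on all 4, with Gstp1 at -1.60 to -0.15. Such a lack of overlap, in either direction, was found for 25.1% of all genes.

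NADPH, which Gsr, Txnrd1 and Nqo1 all consume, is supplied by a set of 19 listed genes. Of these, G6pdx and Me1 were not measured. Of the 17 measured, 0 rose and 1 fell at 2 weeks, when 5.93% of all genes were called. At 4 weeks 0 rose and 3 fell, when 9.77% of all genes were called (list medians -0.006 and -0.052). Mthfd1l, of mitochondrial folate metabolism, fell by 0.50 and 0.41 at the 2 times (adjusted p = 0.0319 and 0.0369). The pentose phosphate gene Tkt, a known Nrf2 target, fell by 0.33 at 4 weeks (adjusted p = 0.0245), and the NAD kinase Nadk fell by 0.42 (adjusted p = 0.0457). The other measured pentose phosphate genes, Pgls, Pgd, Rpia, Rpe and Taldo1, were not called at either time. They are named after their values were seen. Idh1 and Aldh1l1 were at 0.10 and 0.18 at 4 weeks (adjusted p = 0.385 and 0.468).

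Atf4, the amino acid stress factor, shares several targets with Nrf2, among them Slc7a11 and Sesn2. Of 24 measured of 25 genes of the Atf4 list, 0 rose and 1 fell at 2 weeks, when 5.93% of all genes were called. At 4 weeks 0 rose and 2 fell, when 9.77% of all genes were called (list medians -0.017 and 0.015). Eif4ebp1, a repressor of translation, fell by 0.84 and 0.87 (adjusted p = 0.0164 and 0.011). Cebpb was at -0.90 at 2 weeks (adjusted p = 0.0588) and fell by 1.16 at 4 weeks (adjusted p = 0.0258). Shmt2, of serine metabolism, was at -0.12 and -0.17 (adjusted p = 0.389 and 0.214).

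**Figure D4:**
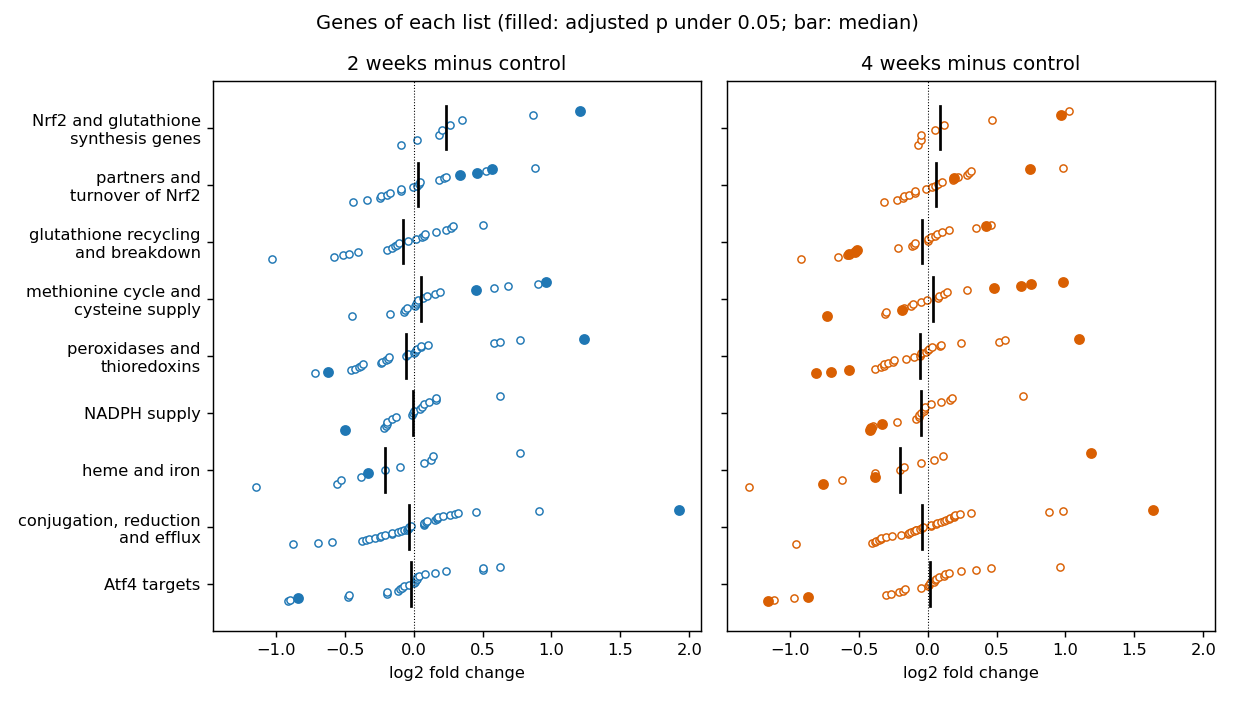
Log2 fold change (horizontal axis) of every measured gene of the Nrf2 and glutathione genes and of 8 further lists (rows), at 2 weeks (left) and 4 weeks (right) against control; filled points have an adjusted p under 0.05 and the bar is the list's median. The row of 8 genes has its median at 0.233 and 0.087. Osgin1 (1.92 and 1.64), a growth inhibitor gene, is the one filled point in the row of the conjugation, reduction and efflux list.

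With both times averaged after Cre, 12.9% of all genes were called. In the cysteine list 4 genes rose and 2 fell, and in the peroxidase and thioredoxin list 1 rose and 3 fell. By the same comparison 1 rose and 2 fell in the heme and iron list, and 1 rose (Osgin1) and 0 fell in the conjugation, reduction and efflux list. In the NADPH list 1 rose (Idh2) and 2 fell, and in the Atf4 list 1 rose (Chac1) and 2 fell.

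The calls of the further lists leaned on single livers too. Of the 11 genes named above from the lists that were called at 2 weeks by the naming rule, 0 to 10 were still called with 1 array left out, and of the 20 called at 4 weeks, 0 to 18 were, while 0 changed sign. Of the 11, 0 were called without control replicate 2 or control replicate 3, and of the 20, 0 without 4 week replicate 1.

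Marker levels of other cell types differed between arrays. In whole liver, fewer cells of a type and less RNA per cell cannot be told apart. The mean log2 signal of 10 measured of 10 stellate cell markers was 8.33 to 8.40 on the controls, 8.58 and 8.73 at 2 weeks and 8.52 and 8.57 at 4 weeks, with 0 markers called at either time alone. After Cre, the comparison in which Gclc and Gclm were called, 2 of the 10 were called higher, beside 6.79% of all genes (Pdgfrb and Hgf, adjusted p = 0.0238 and 0.0338), with a list median of 0.244. For 7 measured of 10 bile duct markers it was 6.26 to 6.30, then 6.35 and 6.62, then 6.41 and 6.48, with Sox9 called at 4 weeks and after Cre. These levels were higher after Cre on all 4 arrays, as were Nfe2l2, Gclc and Gclm, and their part in those results was not tested. Endothelial markers (10 of 10) ran from 9.0 to 9.09 on the controls and from 8.81 to 9.21 after Cre, with Clec4g called at 4 weeks. Lymphoid markers (6 of 10) ran from 5.48 to 5.67 and erythroid markers (2 of 9) from 8.69 to 9.0 over all 7 arrays, with 0 called. The hepatocyte markers, at 13.52 to 13.57 on the controls and 13.64 to 13.69 after Cre, included Fga, which was called higher at both times. After Cre Fga and Fgb were called higher and Tat lower, at -0.62 on the log2 scale (adjusted p = 0.0334), with a list median of 0.008.

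Between 2 and 4 weeks 0 of the 8 genes were called, in a comparison that called 0.00595% of all genes (1 gene). The lowest unadjusted p among the 8 was 0.0928, for Hmox1, at a difference of -0.34 (95% interval -0.75 to 0.08). Gclc differed by 0.17 (95% interval -0.49 to 0.82) and Gclm by 0.11 (95% interval -0.18 to 0.40), so a further rise or a partial return of either could not be detected with 2 livers a time. Both comparisons against control use the same 3 control livers, so their values are given side by side and do not support each other.

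The genes most like each of the 4 widest-ranging genes were found by the root mean square difference of mean-centred log2 values over the 7 arrays. Nfe2l2, with a range of 1.32, was followed most closely by Abhd18 (0.122), Lrrc8d (0.143) and Helz2 (0.145). Gclc, with a range of 1.44, was followed by Ier2 (0.108), Pim1 (0.141) and Atp8b1 (0.161). Gclm was nearest to Zfp362 (0.062), Cmip (0.069) and Usp38 (0.071), and Hmox1 to Zfp532 (0.02), Zfp708 (0.034) and Gng11 (0.042). The measure takes in the size of a change as well as its shape, so genes with different ranges cannot be close by it.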

How the data were processed

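RNA of 7 mouse livers was measured on 1-colour Affymetrix arrays, 1 array per liver. The authors' deposited table holds 1 value per probe set, read as log2 from its range of 3.15 to 14.72. The submitters' processing notes name GCOS 1.4, and no source read for this work states how probes were summarised. Values were used as deposited. Of 21093 probe sets, 17709 had 1 gene symbol, 187 several and 3197 none in the platform annotation. Each gene took its probe set with the highest mean, which gave 16819 genes. The 3 groups were fitted together with limma 3.58.1 in R 4.3.3 (lmFit, eBayes, 4 residual and 1.69 prior degrees of freedom), two-sided, with Benjamini-Hochberg adjustment over all genes and a threshold of 0.05. Intervals are 95% per gene and unadjusted. The labels describe the livers as biological replicates, and their small number limits the precision. The fit was tested on simulated data. The genes and lists were chosen with earlier results of these data known. From each list, up to 3 called genes with the smallest adjusted p and the 2 brightest uncalled genes were named, and other named genes are marked. Alternatives were a replicate block, other eBayes settings, quantile normalization, median centring, a filter on dim genes, probe set means, fits of the compared groups alone, array weights and leaving out each array. A fit of genes with 7 distinct values was added after seeing the data. Reference sequences came from RefSeq (GRCm38.p6). Scanner files were not used here.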

Additional observations from a re-analysis of the deposited data

How the results depend on the processing

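With 2 or 3 livers a group, calls moved readily, while no called value of the 8 genes changed sign under these settings. The counts of the 8 genes called were 1 at 2 weeks, 1 at 4 weeks, 0 between the times and 3 after Cre. Leaving out 1 array at a time gave 0 to 2, 0 to 1, 0 to 0 and 1 to 2, and a group of 2 then held 1 array, which was assumed to vary like the others. In the fit with 2 genes at 2 weeks, the second was Hmox1, at a log2 fold change of 0.52. It then rested on 1 liver, 2 week replicate 2, against controls at 8.40 to 8.41. At 4 weeks 3 genes were called with robust eBayes, median centring, array weights or without genes in the lower quartile of level. Quantile normalization gave 2. Gclc then had an adjusted p of 0.0486, 0.0448, 0.0303, 0.0396 and 0.0464. Over genes with 7 distinct values, a choice made after seeing the data, 2 were called at 2 weeks and 3 at 4 weeks. Over all genes the counts were 997, 1643, 1 and 2171, and leaving out 1 array gave 41 to 2168, 63 to 1948, 0 to 0 and 570 to 2788. Array weights gave 439 at 2 weeks, the compared groups alone gave 276 at 2 weeks and 0 between the times, and genes with 7 distinct values gave 1853 and 2.

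Deviations from the group means of same-numbered arrays had correlations of -0.07 to 0.11. In a group of 2 arrays these deviations mirror each other, so this check cannot decide whether the numbers pair samples. With a replicate block 0 of the 8 genes were called at 2 weeks, at 4 weeks and after Cre, where Nfe2l2 had adjusted p of 0.112, 0.0857 and 0.0675, and over all genes the block called 0, 2, 0 and 5.

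The sign turned for these values, which were uncalled in the main fit. Under quantile normalization Lap3 at 4 weeks was at -0.039 and Hp at 0.0035, and under median centring Cdo1 at 2 weeks was at -6e-04. Leaving out 1 array at a time, the log2 fold change at 2 weeks ran from -0.031 to 0.076 for Txnrd1, -0.12 to 0.13 for Cdo1, -0.00013 to 0.52 for Hmox1, -0.020 to 0.068 for Gnmt, -0.37 to 0.010 for Sod1 and -0.10 to 0.32 for Aldh1l1. At 4 weeks it ran from -0.15 to 0.0011 for Hmox1, -0.058 to 0.11 for Aldh1a1, -0.044 to 0.28 for Nqo1, -0.0019 to 0.048 for Lap3 and -0.16 to 0.063 for Hp. After Cre it ran from -0.038 to 0.023 for Txnrd1 and -0.037 to 0.23 for Hmox1. Between the times it ran from -0.18 to 0.51 for Gclc, -0.25 to 0.078 for Nqo1 and -0.015 to 0.24 for Gclm. The cause of these changes was not tested. Equal values on several arrays limit what the spread of Keap1, Hmox1, Txnrd1 and Srxn1 shows.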
